A study of Mus musculus with 4 samples.

Results

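Rag1-deficient thymocytes of the inbred mouse strain NOD were compared with those of B6 (C57BL/6) by RNA-seq at an early and a later age, and the genes that separated the strains at both ages are described by function and gene family. All 4 libraries of the series entered the comparison. Every animal group was Rag1-/-, so the strains differed in genetic background and shared the Rag1 deletion. The groups were B6 Rag1-/- thymocytes at 4 and at 7 weeks of age and NOD Rag1-/- thymocytes at 4 and at 6.5 weeks of age. There was 1 library per strain and age, from flow-sorted cells. No source used here states the sort markers, the sex of the mice or how many mice gave a library. Levels are RPKM, which count reads per kilobase of a gene's length and scale them to library depth. Of the 33114 named genes, 23558 had under 10% of their reads mapped to several places of the genome in all 4 libraries, and these are called uniquely read. Of them 8525 were tested, having an RPKM no lower than 1 in 2 or more libraries, and the other 15033 were too low to test.

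The Rag1 protein is part of the recombinase that joins antigen receptor gene segments. Without it no T-cell receptor beta chain is made, and thymocytes stop at the CD4- CD8- double negative stage, where survival and growth depend on interleukin 7, Notch and Kit signals and on the genes that prepare the pre-T-cell receptor. NOD is a model of autoimmune diabetes, and the study concerns the failure of this early checkpoint in Rag1-deficient NOD mice and the start of leukaemia there. The question addressed here is which genes differ between NOD and B6 in these arrested cells, whatever the age.

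The 4 libraries held between 10910001 and 14740359 reads in named genes, as recovered from the RPKM values, and between 11841 and 12278 genes at RPKM of 1 or more. The Rag1 transcript was still read in all of them, at RPKM of 132.9 and 108.0 in B6 and 121.4 and 91.7 in NOD (the younger library first, as in every pair of values given here), and the deleted part of the gene was not examined. All 11 double negative thymocyte markers, among them Il2ra, Ptcra and Cd3e, were at RPKM of 1 or more in every library, with a summed RPKM between 2593 and 3553. Of the 5 double positive markers, Cd8a was at most at 0.16 and Cd8b1 at 0.24, and Themis made up most of a sum between 51.8 and 83.9. Markers of other cells were mostly low. The 8 B-cell markers summed to between 31.2 and 41.2, mostly from Cd79b (23.8 to 37.4), with Ms4a1 and Pax5 listed at 0. The 10 myeloid markers summed to between 22.3 and 29.0, with Elane listed at 0. Most of that sum came from Lyz2 (21.3 to 25.8), a gene with shared reads. The dendritic list was carried by Ly6d (between 258.4 and 358.0), with Batf3 listed at 0. The 10 stromal and epithelial markers summed to between 40.9 and 57.1, with Foxn1 listed at 0. Epcam (13.2 to 34.2) and Pecam1 (18.1 to 27.3) made up most of the stromal and epithelial sum. The 3 gamma-delta markers summed to 43.7 and 27.7 in B6 and 31.3 and 91.7 in NOD, the last mostly from Cd163l1 (68.3). The 10 markers of natural killer and innate lymphoid cells summed to 152.9 and 138.1 in B6 and 114.4 and 101.1 in NOD. Most of that sum came from Gzma (54.0 to 86.4) and Nkg7 (32.1 to 58.0). Gzmb went the other way, at 0.41 and 0.53 in B6 and 0.41 and 7.67 in NOD. The 6 erythroid markers summed to 42.1 and 12.4 in B6 and 44.3 and 6.71 in NOD, mostly from Hba-a1 and Hbb-b1, genes with shared reads. No marker of these lists passed the test between strains, and their part in the results was not tested. The B6 library of 7 weeks stood apart: the median uniquely read gene was 0.36 lower on the log2 scale at 7 than at 4 weeks in B6, and 0.08 lower at 6.5 than at 4 weeks in NOD.

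A total of 156 uniquely read genes were higher in NOD and 102 were lower. These are genes with a Benjamini-Hochberg adjusted p under 0.05 in limma, fitted to log2(RPKM + 1) over all 12413 genes tested. They make up 1.83% and 1.2% of the 8525 uniquely read genes tested. These shares are the background for the counts of calls in gene lists given below. Over all genes tested, including those with shared reads, 345 were higher (2.78%) and 197 lower (1.59%). All 258 called genes had NOD values that did not overlap the B6 values, as did 2307 uniquely read genes (27.1%) in the higher and 1336 (15.7%) in the lower direction in total, called or not. Without any model, 93 uniquely read genes (1.09%) had both NOD values of RPKM + 1 at least 2-fold above both B6 values, and a further 54 (0.633%) lay at least 2-fold below both.

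Most of the called genes were near the floor of the test in 1 of the strains. Of the 156 higher genes, 92 were under RPKM 1 in at least 1 B6 library and 13 were at RPKM of 5 or more in all 4 libraries. Of the 102 lower genes, 58 were under RPKM 1 in at least 1 NOD library and 19 were at 5 or more throughout. Genes such as these can pass the filter through 1 strain alone, and a gene that did so had to differ. This holds for 73 genes called higher and 46 called lower. In total 165 uniquely read genes passed through NOD alone and 76 through B6 alone. Epha2, Esr2, Tnfrsf9, Myzap, Dtx4 and Slc15a2 are such genes, and their lack of overlap and adjusted p are no independent support. Genes of this kind could not be refitted without a library of the strain where they are high. The median log2 difference (NOD minus B6) was 1.35 among the higher and -1.33 among the lower genes, against 0.13 over all uniquely read genes tested. That overall median was -0.03 at 4 weeks and 0.29 at the later age, and it was 0.03 after quantile normalization of the libraries.

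**Figure D1:**
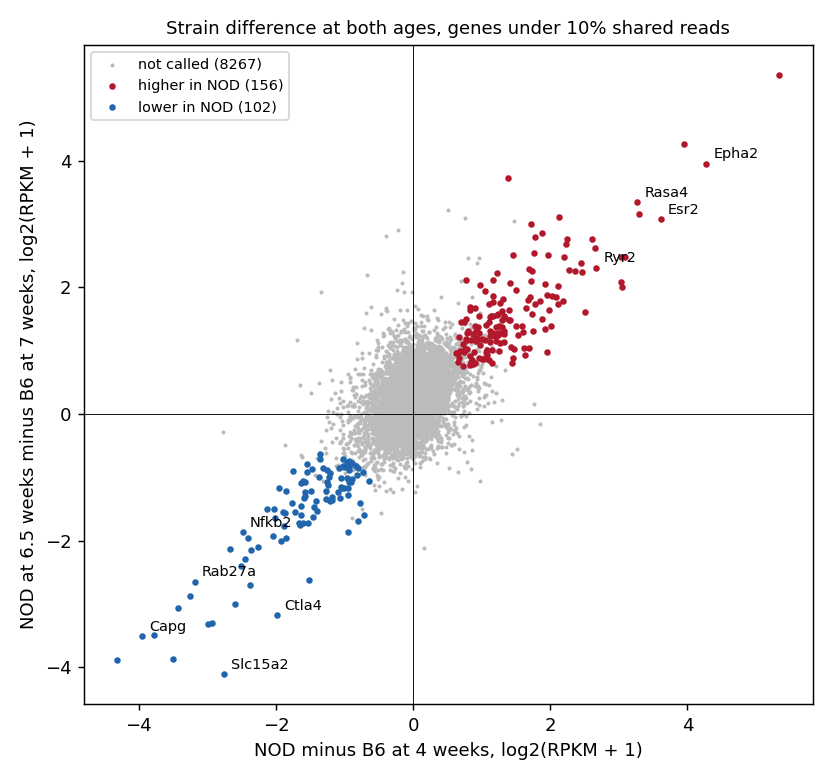
Each point is a uniquely read gene tested, placed by its difference between NOD and B6 at 4 weeks (horizontal, log2 of RPKM + 1) and at 6.5 against 7 weeks (vertical). The 156 genes called higher and the 102 called lower lie in opposite corners, and the bulk of the genes sits somewhat above 0 on the vertical axis (median 0.29) and close to 0 on the horizontal one (median -0.03).

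**Figure D2:**
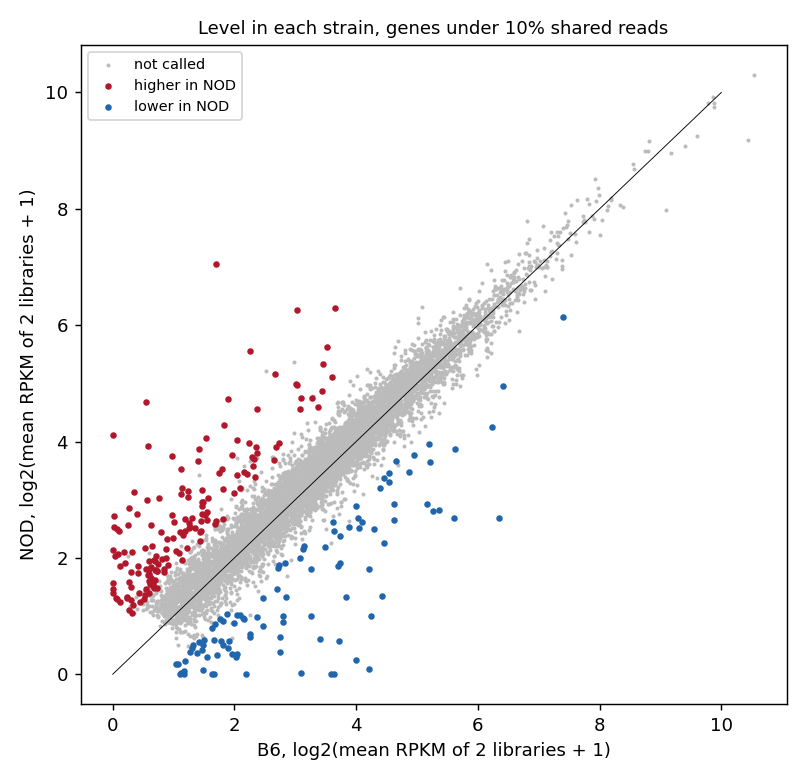
Level of every uniquely read gene tested in B6 (horizontal) and NOD (vertical), as log2 of the mean RPKM of 2 libraries plus 1, with genes called higher in red, genes called lower in blue and the line of equal levels drawn. Many called genes lie close to 1 of the axes, and 3 of those called higher and 4 of those called lower reach a mean RPKM of 50 or more in the strain where they are high.

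The 5′ flanks of 6 genes that were near 0 in 1 strain are shown, since they are among the genes with the widest gaps between the strains: Epha2, Esr2 and Tmem98 were near 0 in B6, and Myzap, Capg and Slc15a2 near 0 in NOD. Each run is the 250 bases before the annotated start in the strain C57BL/6J reference (RefSeq, build GRCm38.p6), 5′ to 3′ on the strand of the gene, with motif matches in capitals. For Epha2, the GENCODE annotation starts somewhat downstream of the RefSeq start used here. The motifs searched on both strands were the TATA box TATAAA (in 12.4% of 32851 promoters of this length), the GC box GGGCGG (32.7%), the CCAAT box CCAAT (33.8%), the Runx core TGTGGT (14%) and the E-box CAGGTG (17.2%). Their positions are chr4:141300971-141301220 (plus strand) for Epha2, chr12:76177260-76177509 (minus) for Esr2, chr11:80810116-80810365 (plus) for Tmem98, chr9:71592361-71592610 (minus) for Myzap, chr6:72549397-72549646 (plus) for Capg and chr16:36784963-36785212 (minus) for Slc15a2.
Epha2: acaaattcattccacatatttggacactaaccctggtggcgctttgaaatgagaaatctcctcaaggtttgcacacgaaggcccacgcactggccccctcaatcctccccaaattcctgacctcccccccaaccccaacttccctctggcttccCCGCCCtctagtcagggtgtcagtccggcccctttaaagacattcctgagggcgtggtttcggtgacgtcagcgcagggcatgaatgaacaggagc
Esr2: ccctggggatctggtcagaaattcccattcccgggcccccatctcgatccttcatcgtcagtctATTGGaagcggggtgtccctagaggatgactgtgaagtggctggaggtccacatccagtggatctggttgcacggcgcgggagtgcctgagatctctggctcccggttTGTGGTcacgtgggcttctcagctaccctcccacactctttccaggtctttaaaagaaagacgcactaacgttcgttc
Tmem98: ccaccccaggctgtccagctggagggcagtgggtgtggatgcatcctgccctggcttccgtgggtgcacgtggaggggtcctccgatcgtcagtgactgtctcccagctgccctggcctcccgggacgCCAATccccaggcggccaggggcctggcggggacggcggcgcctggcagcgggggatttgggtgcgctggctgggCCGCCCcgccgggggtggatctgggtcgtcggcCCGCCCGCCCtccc
Myzap: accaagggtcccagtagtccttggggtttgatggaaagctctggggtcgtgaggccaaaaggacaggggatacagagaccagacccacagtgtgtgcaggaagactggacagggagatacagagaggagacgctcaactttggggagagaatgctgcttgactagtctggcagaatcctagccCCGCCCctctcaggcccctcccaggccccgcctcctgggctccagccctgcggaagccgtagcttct
Capg: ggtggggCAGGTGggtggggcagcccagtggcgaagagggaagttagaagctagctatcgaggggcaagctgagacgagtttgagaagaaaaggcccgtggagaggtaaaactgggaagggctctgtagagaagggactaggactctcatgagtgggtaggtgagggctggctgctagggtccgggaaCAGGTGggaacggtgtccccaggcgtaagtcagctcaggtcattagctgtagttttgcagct
Slc15a2: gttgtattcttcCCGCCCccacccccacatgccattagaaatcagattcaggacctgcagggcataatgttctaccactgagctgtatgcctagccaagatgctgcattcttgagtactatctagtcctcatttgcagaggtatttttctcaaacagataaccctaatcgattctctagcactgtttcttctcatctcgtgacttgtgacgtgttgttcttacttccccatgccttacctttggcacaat
The flanks of the genes higher in NOD held 9, 12 and 20 CpG sites (Epha2, Esr2 and Tmem98), and those of the genes lower in NOD held 6, 7 and 4 (Myzap, Capg and Slc15a2), where the median promoter holds 6 and the quartiles are 2 and 16. GC boxes were found in 4 of them (3 matches in Tmem98, of which the last pair overlaps), the Runx core in Esr2 and E-box matches in Capg, and no motif was present in all 6. The NOD sequence of these flanks was not analysed here, and a match is a description of the B6 letters only.

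Of 15 tested Eph receptors, ephrins, semaphorins and plexins, 3 were higher in NOD and none lower, and their median was 0.49. Epha2, a receptor tyrosine kinase for membrane-bound ephrins, is among the 30 genes highest in NOD and stood at RPKM of 0.52 and 0.41 in B6 and 28.4 and 20.8 in NOD (log2 difference 4.11, SE 0.22, limma adjusted p = 0.000137). Epha2 passed the filter through the NOD libraries alone, so its values could not overlap. The difference was 4.27 at 4 weeks and 3.95 at the later age. Ephb4, a receptor for ephrin-B2, was at 0.32 and 0.08 in B6 and 1.88 and 2.12 in NOD. The semaphorin co-receptor Plxna1 was at 1.39 and 0.7 in B6 and 3.81 and 2.87 in NOD, and its call was lost without the B6 library of 7 weeks (adjusted p = 0.0898) and without the NOD library of 4 weeks (0.133). Sema4a, the most abundant member, did not pass the test and was at 35.1 and 24.8 in B6 and 46.0 and 38.6 in NOD (limma adjusted p = 0.508). Outside the lists, and named after their values were seen, the collagen receptor kinase Ddr1 was at 0.22 and 0.06 in B6 and 3.73 and 2.9 in NOD, and the fibroblast growth factor receptor Fgfr1 at 1.63 and 0.84 in B6 and 3.68 and 4.77 in NOD.

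Esr2 encodes oestrogen receptor beta, a ligand-gated transcription factor. It was at 0.4 and 0.59 in B6 and 16.1 and 12.4 in NOD (log2 difference 3.34, SE 0.21, limma adjusted p = 0.000284). Esr2 passed the filter through the NOD libraries alone, so its values could not overlap. Greb1, known as an oestrogen-responsive gene in breast tissue, was at 0.08 and 0.08 in B6 and 4.98 and 4.09 in NOD. Greb1 overlaps another gene model on the opposite strand, and since the protocol describes no step that keeps strand, reads of such pairs cannot be told apart. Esr2 was the only call among the 16 nuclear receptors tested, whose median was 0.10. The glucocorticoid receptor Nr3c1, the most abundant of them that was not called, was at 34.4 and 37.6 in B6 and 32 and 27.3 in NOD (limma adjusted p = 0.686).

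Genes that act on small GTPases, inositol lipids and G proteins were also called. Rasa4, a calcium-triggered GTPase-activating protein that switches Ras off, was at 4.34 and 3.16 in B6 and 50.5 and 41.3 in NOD. The NOD mean was 12.2 times the B6 mean (log2 difference 3.31, SE 0.24, limma adjusted p = 0.000476). Inppl1, the 5′ inositol phosphatase SHIP2, was at 0.05 and 0.05 in B6, from 4 and 5 reads, and at 4.75 and 4.51 in NOD, from 395 and 523 reads. Both genes overlap another gene model on the opposite strand. The Rap1 exchange factor Rapgef4 and the Rac exchange factor Dock1 were also higher, with log2 differences of 0.93 and 1.01, and both calls were lost without the B6 library of 7 weeks (adjusted p = 0.0809 and 0.0633). In the other direction, Rgs18, which shortens G-protein signals, was at 2.21 and 2.1 in B6 and 0.35 and 0.67 in NOD, and its call was lost without the NOD library of 4 weeks (0.163). Of 53 phosphoinositide kinases and phosphatases, Inppl1 was the only call and the median was 0.15. That call is 1.89% of the list, beside 1.83% of all uniquely read genes called higher.

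The calls among T-cell receptor signalling genes (2 of 47) and protein tyrosine phosphatases (3 of 21) were in the higher direction. Txk, a Tec-family kinase of T cells, was at 1.46 and 1.23 in B6 and 7.83 and 6.66 in NOD (log2 difference 1.81, SE 0.19, limma adjusted p = 0.00216). Ubash3b, a phosphatase that dampens T-cell receptor signals, was at 0.82 and 0.53 in B6 and 2.11 and 3.31 in NOD, and its call was lost without the B6 library of 7 weeks (adjusted p = 0.0912). The Src-family kinase Lck, the most abundant member, was at 493.4 and 360.5 in B6 and 525.0 and 495.3 in NOD, and the lower NOD value lay just above the higher B6 value (limma adjusted p = 0.755). The median of the T-cell receptor signalling genes was 0.14. Called or not, 15 of them had NOD values above both B6 values without overlap and 7 below, beside 27.1% and 15.7% of all uniquely read genes. The protein tyrosine phosphatases had a median of 0.30, with 9 members above and 7 below without overlap. Ptpn13 was at 1.13 and 1.44 in B6 and 4.24 and 6.54 in NOD, Ptpn3 at 1.46 and 0.57 in B6 and 4.54 and 5.78 in NOD, and Ptprv at 2.38 and 1.14 in B6 and 8.54 and 7.32 in NOD. The CD45 gene Ptprc was not called, at 101.5 and 109.5 in B6 and 90.8 and 93.6 in NOD, where both NOD values lay below both B6 values. Rps6kl1, a kinase-like gene related to the ribosomal S6 kinases, was among the 3 higher genes with a NOD mean of 50 or more, at 14.3 and 8.96 in B6 and 95.2 and 60.2 in NOD (log2 difference 2.64, SE 0.32, limma adjusted p = 0.00404), and was the only call among 63 MAP kinase, RSK and dual specificity phosphatase genes. Ptk2b, the calcium-sensitive focal adhesion kinase Pyk2, is in no list and was named after its values were seen: it was at 12.1 and 7.74 in B6 and 42.1 and 36.6 in NOD.

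Calcium genes gave a mirrored pair of calmodulin kinases. Camk2a, a calcium- and calmodulin-dependent kinase best known from neurons, was at 19.98 and 16.1 in B6 and 0.95 and 1.04 in NOD (log2 difference -3.25, SE 0.20, limma adjusted p = 0.000284). Camk1 went the other way, at 1.55 and 0.79 in B6 and 7.24 and 7.8 in NOD, and it overlaps Ogg1 on the opposite strand. Ryr2, the calcium release channel of heart muscle, was at 0.03 and 0.01 in B6, from 9 and 4 reads, and at 5.55 and 4.02 in NOD, from 1613 and 1629 reads. The calcium channel subunit Cacng4 was higher at low levels, at 0.12 and 0.05 in B6 and 1.18 and 1.56 in NOD. Of 36 calcium channels, pumps and calmodulin kinases tested, 3 were higher and 1 lower, with a median of 0.22. The inositol trisphosphate receptor Itpr2, the most abundant member not called, was at 34.3 and 28.1 in B6 and 51.6 and 43.2 in NOD (limma adjusted p = 0.36). Of 33 potassium, sodium and chloride channel genes, the endosomal chloride transporter Clcn6 was higher and the channel-interacting protein Kcnip3 lower, and the Clcn6 call was lost without the NOD library of 4 weeks (adjusted p = 0.188).

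**Figure D3:**
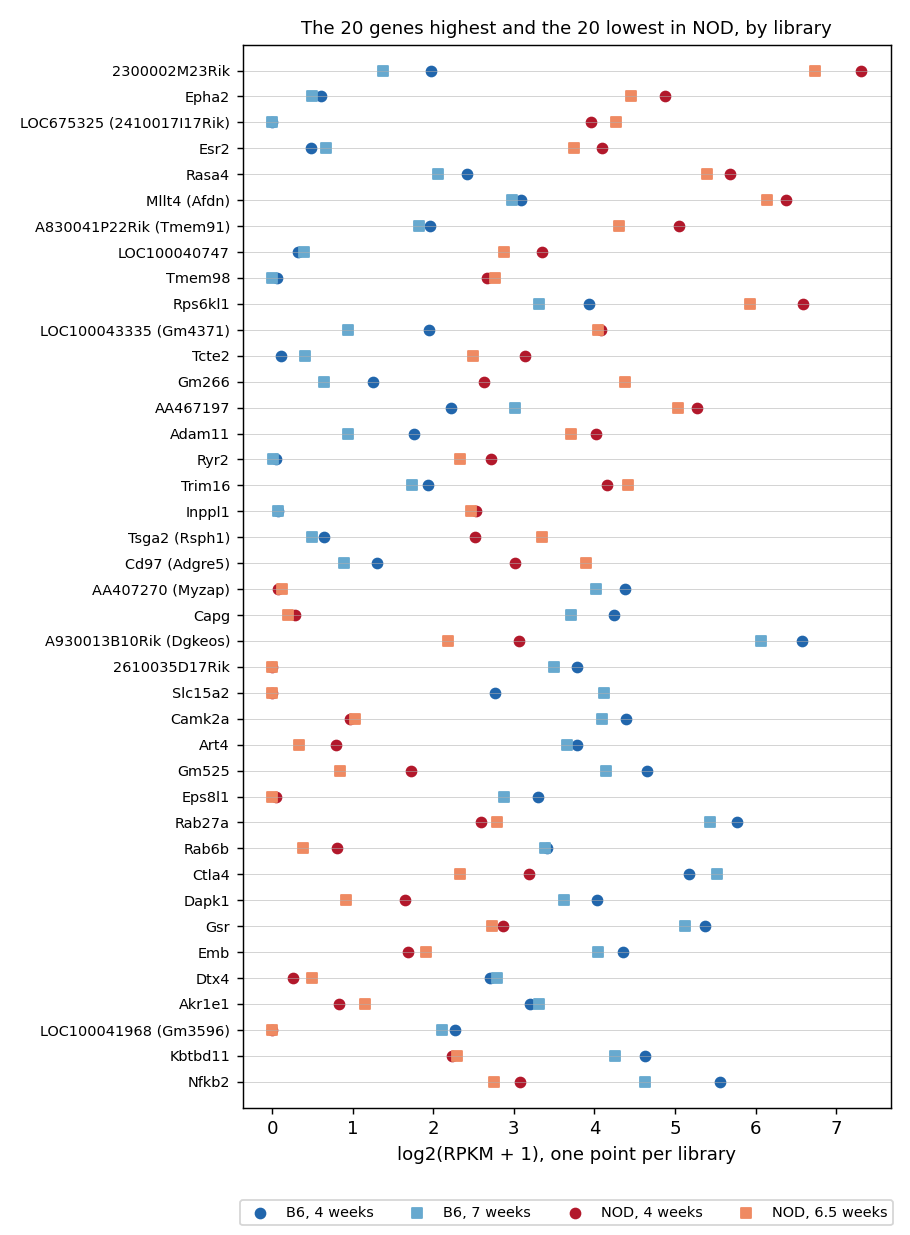
The 20 genes highest and the 20 lowest in NOD by log2 difference among the called genes, with log2(RPKM + 1) on the horizontal axis and 1 point per library (B6 blue, NOD red and orange, circles for 4 weeks and squares for the later age). In each gene both NOD points lie on the same side of both B6 points.

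Genes of the cell cortex and of adhesion were called in both directions. Myzap (listed as AA407270), a junction protein of the intercalated disc, gave the widest gap among the lower genes, at 19.9 and 15.2 in B6 and 0.05 and 0.09 in NOD, where it had 2 and 5 reads (log2 difference -4.10, SE 0.21, limma adjusted p = 0.000124). Capg, which caps the barbed ends of actin filaments, was at 17.9 and 12.1 in B6 and 0.22 and 0.15 in NOD. Eps8l1, a relative of the actin regulator Eps8, was at 8.81 and 6.35 in B6 and 0.03 and 0 in NOD, and it overlaps a gene model on the opposite strand. Tmod4, which caps the pointed ends of actin filaments, was higher instead, at 0.51 and 0.57 in B6 and 5.14 and 4.73 in NOD. These 3 were the calls among 34 actin capping, gelsolin and Eps8 family genes, and the list median was 0.12. Profilin (Pfn1), the most abundant of them, was at 584.0 and 317.3 in B6 and 584.6 and 566.1 in NOD (limma adjusted p = 0.697).

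Afadin (listed as Mllt4, now Afdn) links nectins to actin. It was at 7.49 and 6.9 in B6 and 82.4 and 69.6 in NOD, with a NOD mean 10.6 times the B6 mean, and had more reads than any other called gene, 10561 and 12433 in NOD (log2 difference 3.23, SE 0.22, limma adjusted p = 0.000435). The laminin receptor subunit Itga6 was at 11.5 and 8.28 in B6 and 30.2 and 26.2 in NOD. Its call was lost without the NOD library of 4 weeks (adjusted p = 0.176) and without that of 6.5 weeks (0.0646). The immunoglobulin-family glycoprotein Emb (embigin) was lower, at 19.4 and 15.5 in B6 and 2.22 and 2.77 in NOD. Of 32 junction and adhesion genes 4 were higher and 1 lower, with a median of 0.18, and Pcdhgc3 and the beta-catenin inhibitor Ctnnbip1, the other two higher members, lost their calls without the B6 library of 7 weeks (adjusted p = 0.109 and 0.125). The nuclear envelope protein Syne2, which is in no list, was at 1.36 and 1.02 in B6 and 9.2 and 7.18 in NOD. Among 68 tubulin, kinesin, dynein and cilium genes 5 were higher and none lower, with a median of 0.21: Rsph1 (listed as Tsga2), a protein of the radial spoke of cilia, was at 0.56 and 0.41 in B6 and 4.73 and 9.21 in NOD, and Tcte2 at 0.08 and 0.33 in B6 and 7.82 and 4.63 in NOD. Of the other 3, Tsga10ip was called with a log2 difference of 1.70. Dync2li1 and Ift81 lost their calls without the B6 library of 7 weeks, where their log2 differences were 0.751 and 1.157. None of these 5 genes could be refitted without a NOD library, since all were under RPKM 1 in B6.

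Among 34 T-cell surface receptors 4 were lower and 2 higher. The list median was -0.15, and it was -0.39 at 4 weeks and 0.19 at the later age. Over all uniquely read genes tested the median was -0.03 and then 0.29, so the list lay below it at both ages. Ctla4, the inhibitory receptor for CD80 and CD86, was at 35.0 and 44.8 in B6 and 8.13 and 4.05 in NOD (log2 difference -2.58, SE 0.32, limma adjusted p = 0.00435). Slamf1, a self-binding receptor of lymphocytes, was at 3.18 and 3.1 in B6 and 0.32 and 0.24 in NOD. Cd72, known mostly from B cells, was near the floor of the test, at 1.16 and 1.41 in B6 and 0.16 and 0.18 in NOD, and its call was lost without the NOD library of 4 weeks (adjusted p = 0.0579). Emb is the fourth. Cd97 (now Adgre5), an adhesion G-protein-coupled receptor, was higher, at 1.47 and 0.86 in B6 and 7.11 and 13.8 in NOD, and overlaps Ddx39 on the opposite strand. Cd200, an inhibitory ligand, was at 2.5 and 3.47 in B6 and 8.54 and 6.85 in NOD, and its call was lost without the NOD library of 4 weeks (adjusted p = 0.322) and without that of 6.5 weeks (0.0592). Members of the T-cell receptor complex did not pass the test: Cd3g was at 1493 and 1490 in B6 and 1371 and 1161 in NOD, and Cd3e at 314.4 and 193.7 in B6 and 319.7 and 280.3 in NOD, with limma adjusted p of 0.792 and 0.765.

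Among cytokine and TNF-family receptors and ligands, 2 of 58 were higher and none lower, with a median of 0.08. Tnfrsf9 (4-1BB), a co-stimulatory receptor, was at 0.84 and 0.61 in B6 and 4.77 and 4.12 in NOD (log2 difference 1.66, SE 0.18, limma adjusted p = 0.00277). Ltbr, the lymphotoxin beta receptor, was at 2.29 and 1.27 in B6 and 6.91 and 6.62 in NOD. Nfkb2, the transcription factor subunit that such receptors activate through the non-canonical pathway, was lower: it was at 46.3 and 23.7 in B6 and 7.44 and 5.75 in NOD (log2 difference -2.18, SE 0.33, limma adjusted p = 0.0112). Nfkb2 overlaps Psd on the opposite strand, and Psd was called lower too, at 7.58 and 4.38 in B6 and 1.1 and 0.9 in NOD, so the reads of the 2 genes cannot be told apart. The interleukin 2 receptor alpha chain Il2ra, which marks double negative cells, was at 460.8 and 422.4 in B6 and 491.9 and 531.1 in NOD and was not called (adjusted p = 0.794). None of 18 JAK, STAT and SOCS genes passed the limma test, and 1 of them had an unadjusted p under 0.05.

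Notch drives early T-cell growth, and 2 of 29 genes of its pathway were higher and 2 lower, with a median of 0.21. Dtx4, a Deltex-family ubiquitin ligase, was at 5.54 and 5.92 in B6 and 0.2 and 0.41 in NOD (log2 difference -2.37, SE 0.18, limma adjusted p = 0.000594). Numbl, a Notch inhibitor, was at 2.1 and 1.15 in B6 and 0.21 and 0.38 in NOD, and its call was lost without the NOD library of 4 weeks (adjusted p = 0.12). The receptor Notch4 was at 0.3 and 0.37 in B6 and 2.11 and 2.61 in NOD. Heyl, a transcriptional repressor induced by Notch, was at 2.42 and 1.08 in B6 and 4.82 and 7.98 in NOD, and its call was lost without the B6 library of 7 weeks (0.106) and without the NOD library of 6.5 weeks (0.0667). The strains overlapped in the receptors Notch1 and Notch3, while Il2ra, the most abundant gene of the list, is given with the cytokine receptors. Notch1 was at 252.1 and 139.5 in B6 and 316.8 and 249.5 in NOD, and Notch3 was at 136.5 and 82.0 in B6 and 174.0 and 127.2 in NOD, with limma adjusted p of 0.574 and 0.618. The immediate early gene Egr1 was the only call among 49 T-lineage and progenitor transcription factors, at 2.52 and 1.33 in B6 and 0.21 and 0.24 in NOD, and the list median was 0.11. The call of Egr1 was lost without an intensity trend in limma.

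Of 137 Rab and vesicle traffic genes tested 1 was higher and 2 lower, with a median of 0.14. That is 0.73% and 1.46%, beside 1.83% and 1.2% of all uniquely read genes. Rab27a, a GTPase that docks secretory granules, was at 53.6 and 42.3 in B6 and 5.01 and 5.9 in NOD, and the B6 mean was 8.79 times the NOD mean (log2 difference -2.92, SE 0.23, limma adjusted p = 0.000629). Rab6b, a Golgi GTPase, was at 9.64 and 9.46 in B6 and 0.75 and 0.3 in NOD. Dennd5a (listed as Rab6ip1), which binds Rab6 proteins, was higher, at 1.52 and 1.24 in B6 and 4.56 and 5.52 in NOD. Lrp1, a large endocytic receptor, is in no list and stood at 9.58 and 4.76 in B6 and 34.1 and 26.7 in NOD, with 8788 and 9567 reads in NOD. Agfg1 (listed as Hrb), a vesicle protein, was lower, at 57.8 and 38.9 in B6 and 14.7 and 12.7 in NOD, and its call was lost without the NOD library of 6.5 weeks (adjusted p = 0.0947).

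Calls among metabolic genes were scattered over pathways. Gsr, which regenerates reduced glutathione, was at 40.5 and 33.9 in B6 and 6.29 and 5.63 in NOD (log2 difference -2.45, SE 0.22, limma adjusted p = 0.00105). Nnt, the mitochondrial transhydrogenase that supplies NADPH for that reaction, was higher, at 10.9 and 7.79 in B6 and 23.97 and 22.4 in NOD. Part of Nnt is known to be deleted in C57BL/6J mice, and which exons were counted was not examined. Its call was lost without the NOD library of 4 weeks (adjusted p = 0.322) and without that of 6.5 weeks (0.219). With the peroxidase Gpx8, whose call was lost without the B6 library of 7 weeks (0.113), these were the calls among 47 redox genes, with a median of 0.12. Acadl, which oxidises long-chain fatty acids, was lower at 41.1 and 30.9 in B6 and 9.89 and 13.1 in NOD, with the call lost without the NOD library of 4 weeks (0.238). The phospholipid exporter Abcb4 was higher, at 0.72 and 0.6 in B6 and 2.26 and 2.55 in NOD, and these were the 2 calls among 54 genes of cholesterol and fatty acid metabolism. Fbp1, an enzyme of gluconeogenesis named outside the lists, was at 13.5 and 7.52 in B6 and 47.8 and 48.7 in NOD (log2 difference 2.15, SE 0.29, limma adjusted p = 0.00662). The aldo-keto reductase Akr1e1 was at 8.15 and 8.9 in B6 and 0.78 and 1.22 in NOD. Of 22 aldehyde, alcohol and cytochrome P450 enzymes, 2 were higher and 1 lower, and the 2 higher ones, Fmo5 and Aldh5a1, both lost their calls without the B6 library of 7 weeks (adjusted p = 0.0627 and 0.122), Fmo5 also without either NOD library (0.369 and 0.288).

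Transporters gave 4 higher and 3 lower calls among 152 solute carriers, with a median of 0.25. That is 2.63% and 1.97%, beside 1.83% and 1.2% of all uniquely read genes. Slc15a2, a peptide transporter, had 393 and 1381 reads in B6 (RPKM of 5.78 and 16.3) and none in either NOD library (log2 difference -3.44, SE 0.39, limma adjusted p = 0.00318). The fitted difference of a gene at 0 depends on the added 1 and is no bound on the fold. The mitochondrial aspartate-glutamate carrier Slc25a12 was at 34.4 and 22.0 in B6 and 10.4 and 9.79 in NOD, and its call was lost without the NOD library of 4 weeks (adjusted p = 0.17) and without that of 6.5 weeks (0.264). Slc37a2 was lower by 0.89 and Slc37a1 higher by 1.504 on the log2 scale, 2 sugar-phosphate carriers of 1 family with opposite signs. The Slc37a2 call was lost without either NOD library (0.188 and 0.341) and the Slc37a1 call without that of 6.5 weeks (0.192). Slco3a1 was higher by 1.03, Slc22a17 by 1.28 and Slc7a4 by 0.86, and the call was lost for Slc22a17 without the NOD library of 4 weeks (0.139) and for Slc7a4 without the B6 library of 7 weeks (0.121). Aqp11, a water channel named outside the lists, was the most abundant of the lower genes, at 179.3 and 156.0 in B6 and 78.4 and 60.2 in NOD.

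Calls among defence genes lay in both directions, and many of these genes share reads with near copies. Apobec3, a cytidine deaminase that restricts retroviruses, was at 81.8 and 66.5 in B6 and 19.2 and 16.8 in NOD (log2 difference -1.98, SE 0.23, limma adjusted p = 0.00373). Trim16, a ubiquitin ligase of the tripartite motif family, was the 1 call among 24 TRIM genes, at 2.81 and 2.33 in B6 and 16.9 and 20.3 in NOD. Rsad2 (viperin) was the 1 call among 30 interferon-inducible genes, whose median was -0.11, and it was lost without the B6 library of 7 weeks (adjusted p = 0.0655) and without either NOD library (0.224 and 0.559). Of 13 uniquely read MHC genes, H2-Oa was higher, at 3.82 and 2.41 in B6 and 10.4 and 9.18 in NOD. H2-Ab1 was lower, at 5.16 and 2.41 in B6 and 0.99 and 0.25 in NOD, from 20 and 7 reads in NOD. Its call (limma adjusted p = 0.0474) was lost with a pseudocount of 0.1 and without an intensity trend. Among 25 MHC genes with shared reads, whose values are uncertain, 13 were called higher and 3 lower. Among 37 interferon-inducible genes with shared reads 3 were called higher and 5 lower. Genes with shared reads were called more often in general. Over all genes tested, uniquely read ones included, 2.78% were higher and 1.59% lower, against 1.83% and 1.2% of the uniquely read ones. The shares among genes with shared reads alone therefore lay above 2.78% and 1.59%. B2m, the light chain of MHC class I, was at 1319 and 1461 in B6 and 545.1 and 612.2 in NOD, a gap with no overlap that did not pass the test (limma adjusted p = 0.0748). Art4, an ADP-ribosyltransferase that carries a blood group antigen in humans, was at 12.7 and 11.6 in B6 and 0.73 and 0.26 in NOD, the 1 call among 17 genes of its list. Dapk1, a death-associated kinase, was at 15.3 and 11.3 in B6 and 2.13 and 0.89 in NOD and was the 1 call among 33 cell death genes, and Bcl2l14, a Bcl2-family gene of no list, was at 14.2 and 9.79 in B6 and 2.77 and 2.47 in NOD.

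Among uniquely read genes the widest gap was that of 2300002M23Rik, which has no functional name in the files: it was at 2.91 and 1.59 in B6 and 157.5 and 105.6 in NOD (log2 difference 5.35, SE 0.30, limma adjusted p = 0.000172). LOC675325 (2410017I17Rik) had no read in B6 and 33 and 58 reads in NOD, at RPKM of 14.5 and 18.3. Conversely, 2610035D17Rik had 331 and 332 reads in B6 (12.7 and 10.3) and none in NOD. Altogether 4 of the higher genes were listed at 0 in both B6 libraries and 7 of the lower genes at 0 in both NOD libraries. A930013B10Rik (Dgkeos), which is read from the strand opposite Dgke, was at 94.4 and 66.0 in B6 and 7.39 and 3.55 in NOD. Tmem98 had 1 and 0 reads in B6 and 129 and 195 in NOD (RPKM of 5.36 and 5.82). With Tmem91, at 2.89 and 2.54 in B6 and 32.2 and 18.7 in NOD, and the lower Tmem242, at 87.4 and 80.7 in B6 and 28.4 and 31.5 in NOD, it made 3 calls among 150 TMEM genes. The Tmem242 call was lost without the NOD library of 4 weeks (adjusted p = 0.369) and without that of 6.5 weeks (0.225). Of 204 zinc finger (Zfp) genes, Zfp30 and Zfp575 were higher and none was lower. The share called higher was 0.98% of the Zfp and 1.33% of the TMEM genes, beside 1.83% of all uniquely read genes. The share of TMEM genes called lower was 0.667%, beside 1.2%. A gene model on the opposite strand overlaps 36 genes called higher and 22 called lower.

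Other genes of known role filled out the 30 highest and 30 lowest. Adam11, a catalytically inactive member of the ADAM family, was at 2.4 and 0.92 in B6 and 15.2 and 12.1 in NOD and was the 1 call among 16 genes of its list. The sialyltransferase St6galnac2 was at 0.26 and 0.39 in B6 and 4.76 and 6.72 in NOD. Ccm2l (listed as BC020535), an endothelial signalling protein, was at 0.24 and 0.14 in B6 and 5.39 and 4.45 in NOD. All of these were near the floor in B6 and clear of it in NOD. Igsf8, an immunoglobulin-family protein that binds tetraspanins, was at 5.75 and 2.59 in B6 and 25.5 and 19.6 in NOD. Atp6v0e2, a subunit of the proton pump of endosomes, had no read in B6 and 144 and 89 reads in NOD. Vegfa, the vascular growth factor, lies just outside the 30 and was named after its values were seen, at 7.96 and 6.16 in B6 and 32.8 and 28.8 in NOD. Among the lower genes, Kbtbd11, a Kelch and BTB domain protein, was at 23.8 and 18.1 in B6 and 3.68 and 3.91 in NOD. Adgrd1 (listed as Gpr133), an adhesion G-protein-coupled receptor, was at 3.49 and 2.65 in B6 and 0.23 and 0.23 in NOD. With Cd97 and Adgrg7 (Gpr128), both higher, it made the 3 calls among 44 G-protein-coupled and lipid receptors, and the Adgrg7 call was lost without the B6 library of 7 weeks (adjusted p = 0.0592). Smim5, a small membrane protein, was at 18.5 and 18.6 in B6 and 3.44 and 5.91 in NOD, and its call was lost without the NOD library of 4 weeks (0.0687). Over the 30 highest the log2 difference was at least 1.997 and over the 30 lowest the drop was at least 1.72, with limma adjusted p between 0.000124 and 0.0386.

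In 8 lists no uniquely read member was called: JAK, STAT and SOCS genes, cathepsins and serpins, the Ly6 family, the respiratory chain, glycolysis, the proteasome, chaperones and chromatin regulators. Together they held 296 uniquely read genes tested, of which 10 had an unadjusted limma p under 0.05, and over all uniquely read genes 933 of 8525 did. Members with shared reads were called in 4 of these lists. In the Ly6 family 2 of 4 were lower, and in the respiratory chain 1 of 57 was higher and 1 lower. In glycolysis 1 of 10 and among chaperones 1 of 26 were lower. Genes with shared reads were called more often than uniquely read ones in general. Their shares lay above the 2.78% higher and 1.59% lower of all genes tested. The respiratory chain had 54 members with a median of 0.04, the proteasome 28 with a median of 0.00, and the 113 histone modifiers and chromatin remodellers a median of 0.12. Cox4i1, a subunit of cytochrome oxidase, was at 270.1 and 150.6 in B6 and 242.0 and 227.3 in NOD, and the chromatin remodeller Smarca4 at 204.6 and 118.9 in B6 and 221.4 and 165.4 in NOD, so the strains overlapped and the lowest value was that of the 7-week B6 library in both genes. The highest list median was that of the Eph and semaphorin genes (0.49) and the lowest that of the MHC genes (-0.22). The lists were chosen with earlier results of these data known, so a share above that of all genes is no independent evidence about a list.

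**Figure D4:**
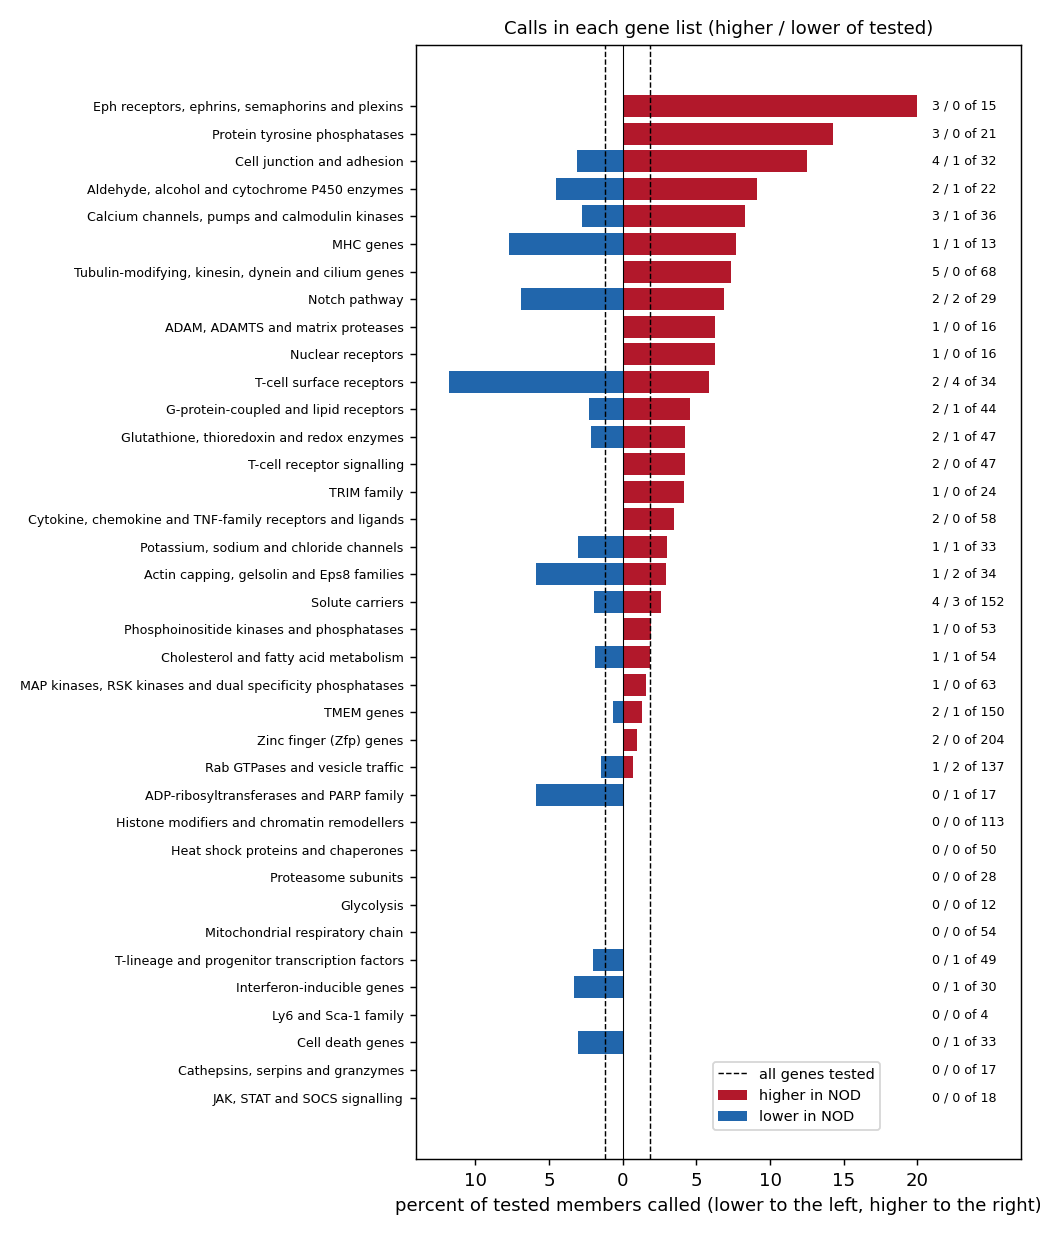
Percent of the uniquely read members tested that were called in each gene list shown, with bars to the right for genes higher and to the left for genes lower in NOD, the counts at the right and dashed lines at the percents over all uniquely read genes tested (1.83% higher, 1.2% lower). The bars of small lists rest on 1 to 5 genes.

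The spread in the test is the difference between the ages within a strain, so genes whose gap changed with age were less likely to be called. In 8 genes called higher and 3 called lower the difference changed by more than 1 on the log2 scale between 4 weeks and the later age. With 1 library per strain and age, a change of this kind has no replicate check. Gm266 changed most, from 1.38 at 4 weeks to 3.74 at the later age: it was at 1.38 and 0.56 in B6 and 5.18 and 19.8 in NOD, and its call was lost without the B6 library of 7 weeks (adjusted p = 0.137). The gap of Heyl went from 0.77 to 2.11, that of Cd97 from 1.72 to 2.995 and that of the aspartic protease Napsa from 1.77 to 2.80. AA467197 went the other way, from 3.05 to 2.01. Among the lower genes the gap of Ctla4 went from -1.98 to -3.18 and that of Slc15a2 from -2.76 to -4.11. The difference was larger at the later age in 97 genes called higher and 40 called lower, beside an overall median that was itself 0.29 then and -0.03 at 4 weeks.

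The called genes had a lower median level than all genes tested. The median over genes of the mean RPKM of the 4 libraries was 2.97 among the higher and 3.95 among the lower genes. It was 9.3 over all uniquely read genes tested. The lower genes had shorter gene models (median 1.99 kilobases) than the higher genes (2.74) and all genes tested (2.69). The longest annotated transcript had a median GC content of 53.0% among the higher, 48.9% among the lower and 50.2% among all genes tested, where a value was known for 93.6%, 83.3% and 95.2% of them. Reads of NOD were placed on the B6 sequence, which could lower the count of a NOD transcript that differs from it, and the part of this, of GC content and of length in the results was not tested. In RNA from many cells, fewer cells of a kind and less RNA per cell cannot be told apart either.

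The limit on shared reads decides which genes are described. Just inside it, with at most 9% shared reads, the intermediate filament gene Nes was at 0.08 and 0 in B6 and 1.9 and 1.09 in NOD, and Dqx1 at 1.76 and 1.67 in B6 and 4.17 and 3.65 in NOD. Just outside it, at 10%, the cytochrome Cyp4f13 was at 6.82 and 7.1 in B6 and 18.4 and 14.4 in NOD, and Ifi202b, an interferon-inducible DNA sensor, was listed at 0 in both B6 libraries and was at 49.7 and 43.4 in NOD.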

How the data were processed

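Polyadenylated RNA of sorted Rag1-/- thymocytes was sequenced in 4 libraries on a Genome Analyzer II, per the labels' protocols. Reads were aligned with Bowtie 0.12.1 to mm9, per the submitters' processing notes. Per the file headers, the authors deposited for each gene an RPKM value, a length in kilobases and the fraction of its reads mapped to several places. The counting program and annotation were not given in the sources used here. The files hold no counts: reads behind a value were recovered from the steps between RPKM values of short genes, of which 98.8% to 100% lay within 0.1 of a whole number of reads in each library (20% by chance). The recovered depths were 17045000 and 21240000 reads in B6 and 17285000 and 24105000 in NOD (the younger first). No interval was computed from them.

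Libraries were grouped by the strain in the labels and joined by gene identifier, and regions without a gene name (0.28% to 0.528% of reads) were left out. Current symbols, by identifier from RefSeq, covered 83.4% of the named genes. A limma (3.58.1, R 4.3.3) fit of log2(RPKM + 1) on strain alone, with a trended variance prior, gave two-sided p-values. They were adjusted by Benjamini-Hochberg, at a threshold of 0.05, over all 12413 genes that had an RPKM no lower than 1 in 2 or more libraries. The libraries of a strain differ in age, and nothing says that they are replicates of one condition, so p-values measure the spread over these 4 libraries, with 2 residual degrees of freedom. A call is lost without a library when the adjusted p of the refit passes 0.05. The lone library of a strain is then assumed to vary like the others. A gene that passed the filter through 1 strain alone was not refitted without a library of that strain. No loss of its call could show there. The script was tested on simulated data. It called 1 of 50 genes changed 2-fold, 28 of 50 changed 4-fold, 44 of 50 changed 8-fold and 43 of 50 changed 16-fold. The changed genes all had a mean log2(RPKM + 1) over 2, and the spreads were shuffled over genes. These counts do not cover genes at lower levels. A gene that was not called may therefore still differ between the strains.

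The text names the 30 uniquely read genes highest and the 30 lowest in NOD among the calls, every called member of 38 gene lists, and up to 4 abundant members of a list that were not called, by their values. A few of these results are not reported here. Other genes are named as chosen after their values were seen. The members and lists were chosen with earlier results of these data known. Alternatives changed the pseudocount, the filter, the scaling (TMM, quantile), the variance prior, the limit on shared reads, the age block and the libraries used.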

Additional observations from a re-analysis of the deposited data

Results flagged for a closer look

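The median strain difference of a list, taken relative to the median of all uniquely read genes at the same age, had opposite signs at the 2 ages in 16 of 38 lists, and in 4 of them it was over 0.05 in size at both ages. The actin capping, gelsolin and Eps8 list stood at -0.133 at 4 weeks and 0.183 at the later age on the log2 scale. The aldehyde, alcohol and cytochrome P450 list stood at -0.121 and then 0.147, the T-lineage and progenitor transcription factors at -0.13 and then 0.07, and the nuclear receptors at -0.066 and then 0.096. With 1 library per strain and age these changes of sign were not tested.

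Regions without a gene name, which no comparison used, took up to 0.528% of the reads, in the B6 library of 7 weeks. There is no control sample for this share.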

How the results depend on the processing

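None of the 258 calls changed direction under any alternative in which it was fitted. Outside TMM and quantile scaling this was fixed in advance, because the values of no called gene overlapped between strains. The counts of calls did move. Over all genes, without a filter on low values 82 were higher and 40 lower (22 and 23 uniquely read); at RPKM of 5 or more, 152 and 87 (55 and 44 uniquely read, with 52 of the 2-fold higher genes left). A pseudocount of 0.1 gave 160 genes 2-fold higher and 96 lower. With the age class as a replicate block, where 1 residual degree of freedom is left, 665 genes were higher and 340 lower (377 and 178 uniquely read), and all 258 calls were kept. The age changes of B6 and NOD did not move together across the 8525 genes (Pearson r = 0.017, genes not being independent), so this block pairs the libraries by age alone. Leaving out 1 library at a time gave between 140 and 3271 higher and between 123 and 433 lower genes, between 67 and 2504 higher and between 61 and 201 lower uniquely read genes, and between 78 and 292 genes 2-fold higher and between 39 and 78 lower. The largest counts of higher genes, 3271 and 2504, came without the B6 library of 4 weeks, which leaves that of 7 weeks alone for B6 and moves the overall median to 0.33; the cause was not tested. Of the calls that could be fitted, 110 of 185 were kept without the NOD library of 4 weeks, 115 of 185 without that of 6.5 weeks and 165 of 212 without the B6 library of 7 weeks. The other calls no longer passed the filter with 1 library fewer. TMM scaling kept 239 and quantile normalization 238 of the 258 calls, and both ended those of Cd200, Ctnnbip1, Dync2li1, Fmo5, Adgrg7, Ift81 and Pcdhgc3. Of the 111 genes named by rule, 26 were still called without a filter and 104 with a pseudocount of 0.1, which ended the calls of Gpx8, Ctnnbip1, H2-Ab1, Heyl, Plxna1, Rsad2 and Slc7a4. Without an intensity trend limma kept 186 calls (90 of the 111), and a fit over uniquely read genes alone kept 191 (94). Both ended those of Gpx8, Ubash3b, Aldh5a1, Ctnnbip1, Dync2li1, Fmo5, Adgrg7, H2-Ab1, Heyl, Ift81, Numbl, Pcdhgc3, Plxna1, Rapgef4, Rsad2, Slc37a2 and Slc7a4, and the former also those of Cd72, Dock1, Egr1 and Gm266. Low depth limits genes near RPKM 1, and no alternative separates strain from the library of each age.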
